A study of Mus musculus with 12 samples.

Results

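Pgr, the gene of the nuclear progesterone receptor, and 6 of its ovulatory target genes (Adamts1, Edn2, Pparg, Prkg2, Cited2 and Ctsl) were followed in granulosa cells of preovulatory mouse follicles. The 7 genes were taken by symbol as the receptor and targets known for it in granulosa cells, and all 7 were among the 18193 genes that the arrays measured with a probe set naming 1 gene. RNA came from laser-captured granulosa cells of 3-week-old mice, on 12 Affymetrix-type arrays, 1 per sample, in 4 groups of 3. The bERKO hCG and WT hCG groups had received pregnant mare serum gonadotropin (PMSG) for 48 h and then human chorionic gonadotropin (hCG) for 4 h, and the bERKO PMSG and WT PMSG groups PMSG for 48 h alone. bERKO mice lack estrogen receptor beta (Esr2), WT mice carry it, and PMSG was given to all 4 groups. The labels name neither the allele nor the number of animals behind an array, and describe the replicates as biological, so p-values here measure the spread between arrays.

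PMSG acts like follicle-stimulating hormone and brings follicles to the preovulatory stage, and hCG stands in for the luteinizing hormone (LH) surge that sets off ovulation. In granulosa cells the LH surge induces the progesterone receptor, a ligand-activated transcription factor, for a short time, and mice without it form follicles that mature but do not rupture. Its known targets in the follicle include proteases that remodel the matrix, a vasoactive peptide, a kinase and transcription regulators. The comparisons ask how the receptor and these targets respond to hCG in each genotype, and whether their levels differ between the genotypes before and after hCG.

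The stretches upstream of 3 genes that were higher after hCG in bERKO, Pgr, Adamts1 and Cited2, are printed as the regulatory sequence next to genes that rose together there. They are the 250 bases before the RefSeq start on build GRCm38.p6, 5′ to 3′ on the strand of the gene, at chr9:8899583-8899832 (plus strand, Pgr), chr16:85803114-85803363 (minus strand, Adamts1) and chr10:17722978-17723227 (plus strand, Cited2). Capitals mark GGGCGG, the GC box bound by Sp-type factors, on either strand, and TGACG, the core of a cAMP response element, and no 2 marked matches overlap.
Pgr: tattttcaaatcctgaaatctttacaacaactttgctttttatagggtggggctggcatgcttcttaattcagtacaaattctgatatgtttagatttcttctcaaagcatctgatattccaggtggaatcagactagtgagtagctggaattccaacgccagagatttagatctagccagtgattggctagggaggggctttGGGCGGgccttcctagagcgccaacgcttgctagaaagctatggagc
Adamts1: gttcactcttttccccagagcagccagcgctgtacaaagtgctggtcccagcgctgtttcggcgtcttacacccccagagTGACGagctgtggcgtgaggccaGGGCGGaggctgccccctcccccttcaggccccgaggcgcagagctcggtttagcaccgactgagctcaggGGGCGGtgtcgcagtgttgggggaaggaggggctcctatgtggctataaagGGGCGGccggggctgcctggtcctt
Cited2: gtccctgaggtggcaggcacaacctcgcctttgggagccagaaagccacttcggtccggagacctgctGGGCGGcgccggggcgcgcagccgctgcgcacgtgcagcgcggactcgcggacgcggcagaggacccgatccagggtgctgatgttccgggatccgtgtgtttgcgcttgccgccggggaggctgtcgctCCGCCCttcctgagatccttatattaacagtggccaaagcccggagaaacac
The Pgr stretch held 1 GC box, with its first base 47 bases before the start, the Adamts1 stretch 3 and the Cited2 stretch 2. RefSeq starts were found for 6 of the 7 genes, 8 starts in all with 3 of them for Pparg, and Prkg2 was not matched. GGGCGG occurred before 5 of the 8 starts, more than 1 of them of Pparg. It occurred in 32.7% of all 32851 upstream stretches of that length. The matching stretches held 63.6% to 82.4% G and C, except that of Pgr with 43.6%, beside a median of 52.4% over all stretches. TGACG occurred before 1 of the 8, that of Adamts1, and in 17.8% of all. AGAACA, the core of the element that progesterone receptor binds, occurred before 0 of the 8 and in 16.1% of all. These are letter matches in 250 bases and say nothing of binding.

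Levels are given as log2(intensity + 16) after quantile normalization, a scale on which the lowest possible value is 4 and on which a difference understates the change of a dim gene. Levels of different genes are not compared, since each comes from its own probe set. A gene counted as changed when its Benjamini-Hochberg adjusted p, over all 18193 genes in limma, was under 0.05. The quantity tested is a difference of group means with its standard error (SE).

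Esr2, the gene missing in bERKO, measured 8.19, 8.64 and 8.13 on the bERKO PMSG arrays against 10.33, 9.01 and 9.33 on the WT PMSG arrays (difference -1.24, SE 0.37, adjusted p = 0.307). After hCG it measured 8.34, 8.13 and 8.53 in bERKO against 8.68, 9.52 and 8.78 in WT (difference -0.66, adjusted p = 0.397). The bERKO arrays were below the WT arrays in both settings, by differences that did not pass. No source used here says whether its probe set lies inside the deleted part, so these values do not check the labels. The 10 measured granulosa markers had a mean level of 11.54 to 11.75 on the bERKO hCG arrays, 12.46 to 12.59 on WT hCG, 12.33 to 12.56 on bERKO PMSG and 12.37 to 12.56 on WT PMSG. In such bulk samples fewer cells of a type and less RNA per cell cannot be told apart.

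WT hCG replicate 1 stood apart from the other WT hCG arrays. Its Gapdh 3'/5' ratio, which rises with RNA degradation or incomplete copying, was 32.16, that of bERKO PMSG replicate 3 was 23.74, and the other 10 arrays had 4.72 to 11.19. On the first principal component (36.8% of the variance) it lay at -24.3, the other WT hCG arrays at 27.2 and 32.5, the bERKO hCG arrays at 85.0 to 95.7 and the WT PMSG arrays at -44.4 to -36.1. Results in which this array changed a call are therefore given with and without it. Median intensities of the arrays ran from 49.1 to 112.4, no 2 arrays held identical values, and the lowest correlation between arrays of a group was 0.914.

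In bERKO granulosa cells hCG raised Pgr, Prkg2, Cited2 and Adamts1, and in WT cells the level of Pgr followed the array. Pgr was at its induced level on 2 of 3 WT hCG arrays and at the level of cells not given hCG on replicate 1. Of the 6 targets, Prkg2, a kinase activated by cyclic GMP, came closest to the receptor's course over the arrays. The nuclear receptor Pparg differed from the others: its WT hCG arrays lay below all WT PMSG arrays. Pparg, Edn2 and Ctsl had no difference that passed in any comparison with all arrays.

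Pgr measured 14.06, 13.98 and 14.04 on the bERKO hCG arrays and 5.21, 13.10 and 13.38 on the WT hCG arrays. Before hCG it measured 6.0, 4.63 and 5.96 in bERKO and 6.67, 6.45 and 6.48 in WT. The 3 bERKO hCG arrays lay close together, all above every WT hCG array, whereas WT hCG replicate 1 was below all 3 WT PMSG arrays. In the intensities as deposited, that array read 23 for Pgr, against 7659 and 8761 on WT hCG replicates 2 and 3, 17379, 15312 and 17292 on bERKO hCG, and 79, 67 and 73 on WT PMSG. The order of the group means was bERKO hCG (14.03 ± 0.05), WT hCG (10.56 ± 4.64), WT PMSG (6.53 ± 0.12) and bERKO PMSG (5.53 ± 0.78; SD, n = 3 each), and only WT hCG and WT PMSG overlapped as neighbours.

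**Figure D1:**
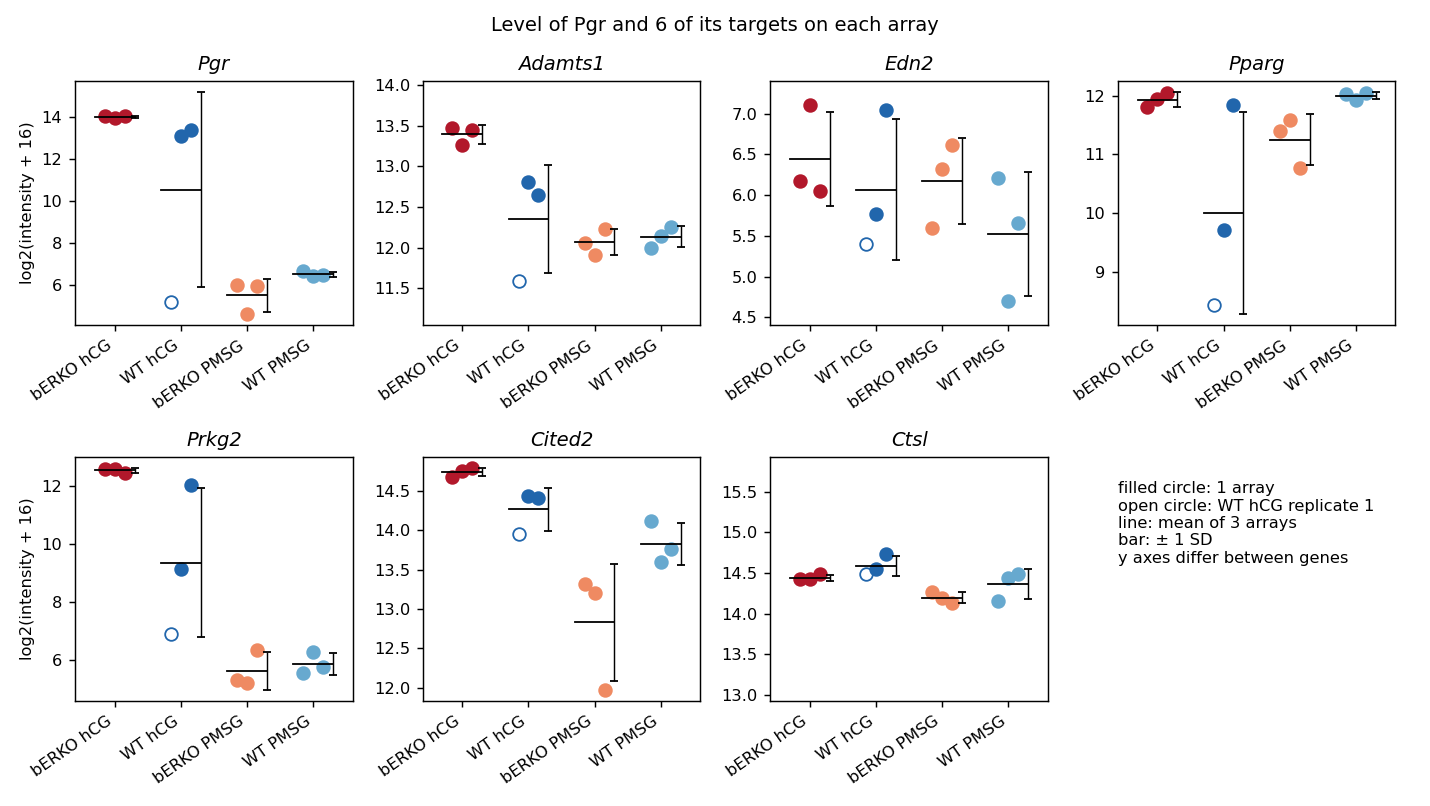
Level of Pgr and its 6 targets on each array, as log2(intensity + 16), by group; points are arrays, the open point is WT hCG replicate 1, lines are group means and bars 1 SD (n = 3), and the y axes differ between genes. The bERKO hCG arrays of Pgr lie at 13.98 to 14.06 and those of Prkg2 at 12.43 to 12.59, while the WT hCG arrays of these genes spread from 5.21 to 13.38 and from 6.90 to 12.03.

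In bERKO the hCG response of Pgr was 8.50 (SE 1.60, 95% interval 4.99 to 12.003, adjusted p = 0.00398), a 361-fold difference on this scale. In WT it was 4.03 (SE 1.60, interval 0.52 to 7.53, adjusted p = 0.222), and without WT hCG replicate 1 it was 6.70 (SE 0.39, adjusted p = 2.46e-05). The bERKO minus WT difference after hCG was 3.46 (interval -0.04 to 6.97, adjusted p = 0.294) with all arrays and 0.79 (SE 0.39, adjusted p = 0.434) without that array. The bERKO hCG arrays thus lay above WT hCG replicates 2 and 3 as well, by a margin that did not pass over all genes.

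All 3 Pgr probe sets were low on WT hCG replicate 1. The second read 5.06 there, against 11.41 and 11.77 on WT hCG replicates 2 and 3, and the third 4.09 against 7.55 and 7.34. Their hCG responses in bERKO were 7.10 and 4.29, and both passed over all one-gene probe sets (adjusted p = 0.00401 and 0.00231). Before hCG the probe sets disagreed in sign between the genotypes: the bERKO minus WT difference was -1.003 for the brightest and 1.09 and 0.68 for the others, none of them passing. On these others every bERKO PMSG array was above every WT PMSG array, the reverse of the brightest.

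Among the matrix proteases, Adamts1 cleaves versican in the matrix around the cumulus-oocyte complex. It measured 13.47, 13.26 and 13.45 on bERKO hCG arrays and 11.59, 12.81 and 12.65 on WT hCG arrays, and before hCG 12.06, 11.91 and 12.23 in bERKO and 11.998, 12.15 and 12.26 in WT. All bERKO hCG arrays were above all other arrays, and the other 3 groups overlapped as neighbours in the order of means. It rose by 1.33 (SE 0.31, adjusted p = 0.0131) after hCG in bERKO, a 2.505-fold difference, and with arrays centred on their medians in place of quantile normalization the value was 0.92 (adjusted p = 0.0715). The WT response was 0.22 (adjusted p = 0.799), and 0.60 (adjusted p = 0.231) without WT hCG replicate 1, where Adamts1 was lower than on any other array. After hCG the bERKO minus WT difference was 1.04 (SE 0.31, adjusted p = 0.101), and 0.66 (adjusted p = 0.25) without that array.

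Ctsl, the lysosomal cysteine protease cathepsin L, measured 14.42, 14.42 and 14.48 in bERKO hCG and 14.49, 14.55 and 14.73 in WT hCG. Before hCG it measured 14.27, 14.20 and 14.13 in bERKO and 14.15, 14.44 and 14.49 in WT. The groups lay within a narrow band, with the WT hCG mean highest, its arrays just above those of bERKO hCG, and the other 3 groups overlapping as neighbours. The hCG response was 0.24 in bERKO (interval -0.24 to 0.73, adjusted p = 0.486) and 0.23 in WT (interval -0.25 to 0.71, adjusted p = 0.679). A second, dimmer probe set gave -0.43 in bERKO and 0.61 in WT, and the sign of the bERKO value also turned with median centring (-0.32).

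Edn2 encodes endothelin-2, a vasoconstrictor peptide that granulosa cells are known to make for a short time close to follicle rupture. It measured 6.18, 7.11 and 6.05 in bERKO hCG and 5.40, 5.76 and 7.05 in WT hCG, and before hCG 5.59, 6.32 and 6.62 in bERKO and 6.21, 4.70 and 5.66 in WT. All 4 groups overlapped, at levels near the dim end of the arrays. Its hCG response was 0.27 in bERKO (interval -0.86 to 1.39, adjusted p = 0.772) and 0.55 in WT (interval -0.58 to 1.67, adjusted p = 0.666), and a response in bERKO within that interval was not detectable with these arrays.

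Prkg2 encodes cyclic GMP-dependent protein kinase II. It measured 12.57, 12.59 and 12.43 in bERKO hCG and 6.90, 9.11 and 12.03 in WT hCG, and before hCG 5.28, 5.18 and 6.34 in bERKO and 5.53, 6.27 and 5.73 in WT. The WT hCG arrays spread widely, yet all were above all WT PMSG arrays and below all bERKO hCG arrays, and only the PMSG groups overlapped. The hCG response in bERKO was 6.93 (SE 0.93, interval 4.90 to 8.97, adjusted p = 0.000687), a 122-fold difference. In WT it was 3.50 (SE 0.93, adjusted p = 0.0782), and 4.73 (SE 0.69, adjusted p = 0.00739) without WT hCG replicate 1. The bERKO minus WT difference after hCG was 3.18 (SE 0.93, adjusted p = 0.0918). It was 1.96 (adjusted p = 0.237) without WT hCG replicate 1 and 4.53 (adjusted p = 0.00441) without WT hCG replicate 3. Prkg2's other probe sets gave bERKO responses of 4.08 and 5.04 and WT responses of 1.19 and 1.85, in the same directions. On both of them WT hCG replicate 1, at 5.36 and 4.05, was below every WT PMSG array.

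Cited2, a regulator that binds the coactivators CBP and p300 and restrains hypoxia-inducible factor, measured 14.68, 14.75 and 14.79 in bERKO hCG and 13.95, 14.43 and 14.42 in WT hCG. Before hCG it measured 13.31, 13.20 and 11.97 in bERKO and 14.12, 13.59 and 13.77 in WT. The bERKO arrays were the highest of all after hCG and the lowest of all before it, without overlap with the neighbouring WT group. On its second probe set bERKO PMSG replicate 2, at 9.28, was above every WT PMSG array (8.93 to 9.27). Cited2 rose by 1.91 (SE 0.35, adjusted p = 0.0034) after hCG in bERKO, a 3.76-fold difference, and its second probe set gave 3.82. In WT the response was 0.44 (adjusted p = 0.59), and 0.60 (adjusted p = 0.483) without WT hCG replicate 1. On the second probe set the WT response was 1.42 (limma over all one-gene probe sets, adjusted p = 0.237). Its WT hCG arrays, at 11.38, 9.40 and 10.95, were all above every WT PMSG array, with replicate 1 the highest of them. The bERKO minus WT difference was 0.47 after hCG (adjusted p = 0.552) and -0.995 before it (SE 0.35, interval -1.76 to -0.23, adjusted p = 0.397), and -0.57 (adjusted p = 0.655) without bERKO PMSG replicate 3, the array with the Gapdh ratio of 23.74.

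Pparg encodes a nuclear receptor for fatty acid derivatives, and in rats its transcript is known to decline in granulosa cells after the LH surge. It measured 11.80, 11.94 and 12.05 in bERKO hCG and 8.44, 9.71 and 11.85 in WT hCG, and before hCG 11.40, 11.59 and 10.76 in bERKO and 12.03, 11.93 and 12.04 in WT. After hCG all bERKO arrays were above all bERKO PMSG arrays, and all WT arrays were below all WT PMSG arrays. WT PMSG overlapped with bERKO hCG, and bERKO PMSG with WT hCG. The responses, 0.69 in bERKO (SE 0.64, adjusted p = 0.501) and -1.999 in WT (SE 0.64, interval -3.39 to -0.61, adjusted p = 0.132), did not pass, and neither did their difference of 2.69 (SE 0.90, adjusted p = 0.181). Which WT hCG array was left out decided the WT call: the value was -1.22 (adjusted p = 0.253) without replicate 1 and -2.92 (adjusted p = 0.0107) without replicate 3.

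**Figure D2:**
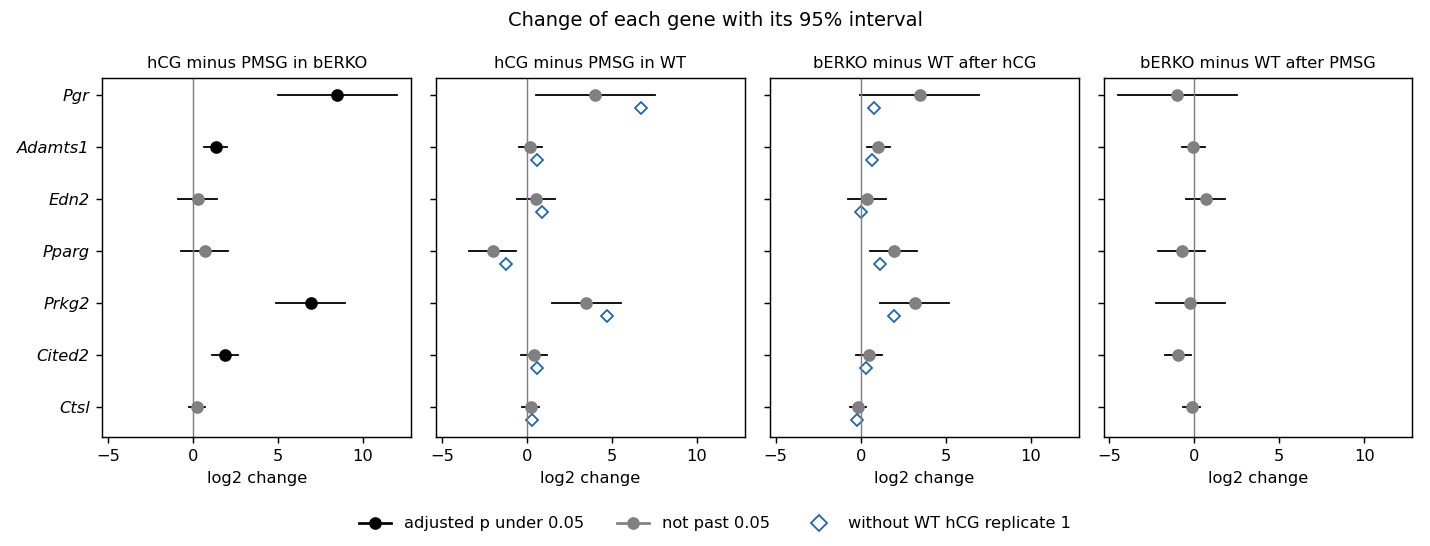
Differences of group means for the 7 genes, on the log2 scale, with 95% intervals (lines); filled black points passed at an adjusted p under 0.05, grey points did not, and open diamonds are values without WT hCG replicate 1. After hCG in bERKO the values run from 0.24 for Ctsl to 8.50 for Pgr, and the WT response of Pgr is 4.03 with and 6.70 without that array.

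Counted over the 7 genes, 4 passed as higher after hCG in bERKO, Pgr, Prkg2, Cited2 and Adamts1, and 0 passed as lower, where 18.9% of all genes were called, 7.05% as higher and 11.9% as lower. For 6 of 7, all except Edn2, every bERKO hCG array was above every bERKO PMSG array, as on 13.3% of all genes (22.9% for below). Their median response in bERKO was 1.33, beside -0.19 for all genes. The genes were chosen with earlier results of these data known, so this is not an independent test of them as a set. In WT 0 of 7 passed, where 2.08% of all genes were called, 0.731% as higher and 1.35% as lower; the median was 0.44, beside -0.08, and 3 of 7 had an unadjusted p under 0.05 in limma, as did 17.1% of all genes. For Prkg2 every WT hCG array was above every WT PMSG array, as on 8.79% of all genes, and for Pparg every one was below, as on 15.2%. For Prkg2 this held on the brightest of its 3 probe sets. On the others WT hCG replicate 1 was below every WT PMSG array. Without WT hCG replicate 1, 2 of 7 passed in WT, Pgr and Prkg2, where 1.10% of all genes were called higher. The WT response and the genotype comparison after hCG share the WT hCG arrays.

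Between the genotypes after hCG 0 of 7 passed, where 3.09% of all genes were called, 1.55% as higher and 1.54% as lower; 3 of 7 had an unadjusted p under 0.05, as did 17.5% of all genes. On 4 of 7, Pgr, Adamts1, Prkg2 and Cited2, every bERKO array was above every WT array, as on 11.4% of all genes, and on Ctsl every bERKO array was below, as on 13.2%. The median difference was 1.04, beside -0.06 for all genes. The difference between the hCG responses of the genotypes also passed for 0 of 7, where 1.31% of all genes were called, with 4 of 7 at an unadjusted p under 0.05, as were 15.3% of all genes.

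Before hCG 0 of 7 differed between the genotypes, where 0.0110% of all genes were called, and 1 of 7, Cited2, had an unadjusted p under 0.05, as did 9.53% of all genes. For Pgr, Pparg and Cited2 every bERKO PMSG array was below every WT PMSG array, as on 6.58% of all genes. The reverse held for 0 of 7, where 8.14% of all genes had it. For Pgr the separation held on 1 of its 3 probe sets, and the other 2 were reversed. On the second Cited2 probe set the genotypes overlapped, with bERKO PMSG replicate 2 above every WT PMSG array. The values were -1.003 for Pgr (SE 1.60, adjusted p = 0.893; -0.55 without bERKO PMSG replicate 2) and -0.75 for Pparg (SE 0.64, adjusted p = 0.774). Adamts1 (-0.07), Ctsl (-0.16), Prkg2 (-0.24) and Edn2 (0.66) overlapped between the genotypes.

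Markers of other cells also differed between the groups. Summed intensities of the 12 endothelial markers ran from 1657 to 3274 on bERKO hCG, 469 to 736 on WT hCG, 497 to 845 on bERKO PMSG and 546 to 1036 on WT PMSG, and 4 of 12 passed as higher in bERKO than in WT after hCG (Emcn, Cdh5, Kdr and Flt1), of which 2, Emcn and Cdh5, passed without WT hCG replicate 1. The 11 theca and stroma markers summed to 4550 to 16540 on bERKO hCG and 2240 to 2977 on WT hCG, with 1235 to 4523 on bERKO PMSG and 856 to 7303 on WT PMSG. The 12 leukocyte markers summed to 1028 to 3511 on bERKO hCG, 588 to 851 on WT hCG, 427 to 1357 on bERKO PMSG and 428 to 1032 on WT PMSG, so for both lists bERKO hCG overlapped with WT PMSG. The 11 oocyte markers summed to 1191 to 3052 on bERKO hCG, 705 to 1433 on WT hCG, 6975 to 19363 on bERKO PMSG and 615 to 5214 on WT PMSG. Of the 10 granulosa markers, 3 were lower in bERKO than in WT after hCG (Inhbb, Fshr and Foxl2), of which 1, Inhbb, passed without WT hCG replicate 1. Over all genes 1.55% were called higher and 1.54% lower in that comparison. After hCG in bERKO, 5 of 12 endothelial (6 without WT hCG replicate 1), 2 of 11 theca and stroma and 2 of 12 leukocyte markers rose. In the same comparison 6 of 11 oocyte and 4 of 10 granulosa markers fell, where 7.05% of all genes rose and 11.9% fell. The oocyte count was 0 without both WT hCG replicate 1 and bERKO PMSG replicate 3. 0 of the 56 markers lay within 1 of the floor on all arrays. Their part in the values of Pgr and its targets was not tested.

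WT hCG replicate 1 was not uniformly like an array of cells not given hCG. Its position was examined for 32 genes, the 7 genes here, 11 others that depend on the progesterone receptor and 14 of the LH response, of which 17 differed by more than 1 on the log2 scale between WT hCG replicates 2 and 3 and the WT PMSG mean, in the direction of higher after hCG. On replicate 1 the median of these genes had covered 27.9% of that gap, 13 had covered under 50%, 5 under 10% and 2 over 90%. Ptgs2, the prostaglandin synthase of ovulation, was at 8.18 there, 43.0% of its gap, and the immediate early gene Nr4a1 was at 10.09, 96.7% of its gap. Pgr (-19.7%), the synaptic protein Snap25 (-2.1%) and the matrix protein Tnfaip6 (-1.3%) had covered none of theirs, while Prkg2 had covered 22.3%. On the dimmer Prkg2 probe sets replicate 1 was below every WT PMSG array. The part of the high Gapdh ratio of this array in these values was not tested.

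**Figure D3:**
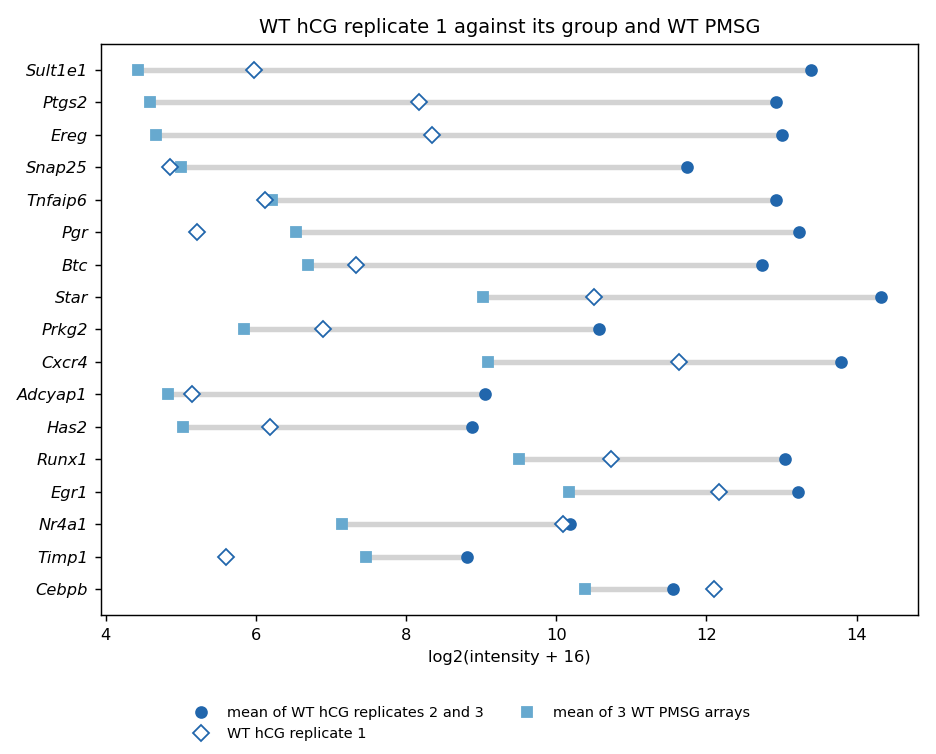
Level, as log2(intensity + 16), of the 17 of these 32 genes with a higher mean on WT hCG replicates 2 and 3 (circles) than in WT PMSG (squares) by more than 1, with WT hCG replicate 1 as an open diamond. Pgr, Snap25, Tnfaip6 and Timp1 on replicate 1 are below the WT PMSG mean, Nr4a1 is close to the mean of replicates 2 and 3, and Cebpb is above it.

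The genes whose course over the 12 arrays was most like that of Pgr were Snap25, the immediate early transcription factor Egr3, the EGF-like ligand Btc, the neuropeptide Nts and Ptx3, a protein of the cumulus matrix. Likeness was the root-mean-square difference of log2 level from Pgr, each gene centred on its own mean, among 11627 genes with a mean level of at least 6. It was 0.54 for Snap25, 0.89 for Egr3 and Btc, 0.93 for Nts and 0.97 for Ptx3. Snap25 measured 13.02, 13.19 and 13.29 in bERKO hCG and 4.86, 11.46 and 12.03 in WT hCG, with 4.80 to 5.33 in bERKO PMSG and 4.85 to 5.10 in WT PMSG. Like Pgr, it was at the PMSG level on WT hCG replicate 1, an array that the likeness was measured on. Among the targets, Prkg2 ranked 12th (1.35), Cited2 654th (3.32), Adamts1 675th (3.33), Edn2 1790th (3.63), Ctsl 2975th (3.79) and Pparg 3065th (3.80). The measure weighs size as well as shape, so a gene with a small response is far from Pgr whatever its direction. Without WT hCG replicate 1, Snap25 remained at rank 1 and Prkg2 was at rank 13. Btc, Egr3, Ptx3 and Nts were then at ranks 2, 3, 5 and 6.

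Of 12 other granulosa genes reported to depend on the progesterone receptor, 11 were measured. In bERKO 7 of 11 rose and 1 fell after hCG, with a median response of 1.53 beside -0.19 for all genes. Over all genes, 7.05% rose and 11.9% fell in bERKO, and 0.731% rose and 1.35% fell in WT (1.10% rose without WT hCG replicate 1). Between the genotypes after hCG, 1.55% were higher and 1.54% lower in bERKO. The counts of this list and of the lists that follow stand beside those shares. Ereg, an EGF-like ligand that passes the LH signal on to cumulus cells, rose by 9.33 (SE 0.99, adjusted p = 0.00024), the chemokine receptor Cxcr4 by 4.27 (SE 0.63) and the neuropeptide gene Adcyap1 by 7.23 (SE 1.08), and the transcription factor Zbtb16 fell by 1.45 (SE 0.34). In WT 2 of 11 rose, Ereg by 6.78 (adjusted p = 0.00952) and Cxcr4 by 3.97 (adjusted p = 0.0127), and 0 fell, with a median of 0.02. Without WT hCG replicate 1, 4 of 11 rose in WT, those and Snap25 (6.75) and Adcyap1 (4.21).

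Between the genotypes after hCG 2 of these 11 passed, both higher in bERKO, where 1.55% of all genes were called higher. Adcyap1 measured 12.14, 12.31 and 12.55 in bERKO hCG against 5.15, 7.29 and 10.81 in WT hCG (difference 4.58, SE 1.08, adjusted p = 0.0454). Il6, a cytokine of the ovulating follicle, measured 5.40, 6.13 and 5.76 in bERKO hCG against 4.04, 4.86 and 4.26 in WT hCG (difference 1.38, SE 0.30, adjusted p = 0.0362). Outside bERKO hCG, Il6 lay within 1 of the floor of 4 on all 9 arrays. No array of one genotype reached those of the other for either gene. Both calls were lost without WT hCG replicate 1 (3.28, adjusted p = 0.127 for Adcyap1, and 1.20, adjusted p = 0.119 for Il6).

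**Figure D4:**
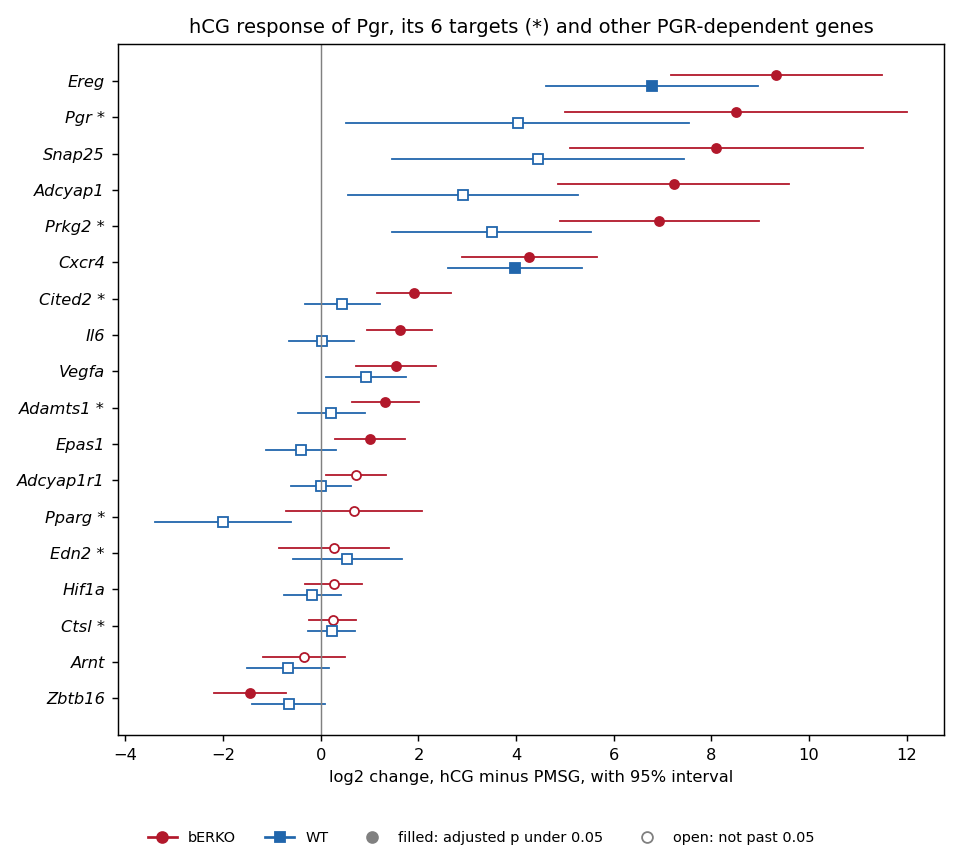
Response to hCG (log2 difference, hCG minus PMSG, with 95% interval) of Pgr, its 6 targets (marked with a star) and 11 other genes reported to depend on the receptor, in bERKO (red) and WT (blue); filled points passed at an adjusted p under 0.05. In bERKO the values run from -1.45 (Zbtb16) to 9.33 (Ereg), and in WT only Ereg and Cxcr4 passed with all arrays.

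The receptor's helpers and its membrane counterparts were measured beside it. Hsp90aa1, a chaperone that holds steroid receptors ready for hormone, measured 13.96, 13.93 and 14.10 in bERKO hCG and 13.49, 14.02 and 13.88 in WT hCG, with 11.68 to 12.17 in bERKO PMSG and 11.61 to 12.06 in WT PMSG. Every hCG array was above every PMSG array, WT hCG replicate 1 included. It rose by 2.003 in bERKO (SE 0.26, adjusted p = 0.000553) and by 1.93 in WT (SE 0.26, adjusted p = 0.0069). Of the 10 measured chaperones, coregulators and Sp factors, it alone passed in WT, and in bERKO Sp3 rose by 1.24 and the coactivator Ncoa3 fell by 1.30. Among 8 membrane progestin receptors and PGRMC proteins, Paqr7 and Paqr6 fell in bERKO, by 2.50 (SE 0.38) and 2.10 (SE 0.56), 0 passed in WT, and Paqr7 was lower in bERKO than in WT after hCG (-1.94, adjusted p = 0.0222), a call that was lost without WT hCG replicate 1 (-2.14, adjusted p = 0.0504).

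Among the other steroid receptors, 4 were measured. Esr1, estrogen receptor alpha, measured 7.08, 6.14 and 6.41 in bERKO hCG and 7.88, 8.07 and 7.42 in WT hCG, and before hCG 9.99, 10.34 and 9.65 in bERKO and 8.76, 8.43 and 8.87 in WT. It was lowest in bERKO after hCG and highest in bERKO before it, with no overlap between the genotypes. It fell by 3.45 after hCG in bERKO (SE 0.32, adjusted p = 0.000155), against -0.90 in WT, and the responses differed by -2.55 (adjusted p = 0.0236; adjusted p = 0.052 without WT hCG replicate 1). The glucocorticoid receptor Nr3c1 rose by 1.86 in bERKO (SE 0.38, adjusted p = 0.00606), and in WT passed without WT hCG replicate 1 (1.95, adjusted p = 0.00593).

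Each target was also set beside its own family. Of 7 ADAMTS proteases and versican (Vcan), 3 rose and 2 fell in bERKO, with Adamts4 at 5.21, Adamts9 at 2.42 and Vcan at 2.26, and Adamts9 alone passed in WT (1.73, adjusted p = 0.0377), joined by Vcan without WT hCG replicate 1 (1.5, adjusted p = 0.0198). Adamts4 measured 10.45, 11.26 and 10.41 in bERKO hCG and 5.95, 8.32 and 8.54 in WT hCG (difference 3.10, SE 0.74, adjusted p = 0.047), a call that was lost without WT hCG replicate 1 (2.28, adjusted p = 0.143). Of 5 measured endothelin genes, Ece1, which cuts the precursors of endothelins, fell by 1.81 in bERKO and was lower in bERKO than in WT after hCG (-1.39, SE 0.25, adjusted p = 0.0156; without WT hCG replicate 1 the call was lost, at -1.20, adjusted p = 0.0523). Of 12 other cathepsins and cystatins, 3 fell in bERKO, Ctso, Ctsf and Ctsh, and Ctsh fell in WT by 2.22 (SE 0.28).

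Around Prkg2, 6 genes of the cyclic GMP path were measured. Gucy1a1, a subunit of the enzyme that makes cyclic GMP, and Nppc, a peptide that raises it through its receptor, were lower in bERKO than in WT after hCG, by -1.87 (SE 0.34, adjusted p = 0.0183) and -2.53 (SE 0.56, adjusted p = 0.0355). Without WT hCG replicate 1 neither passed (-1.80, adjusted p = 0.0692 for Gucy1a1, and -1.88, adjusted p = 0.0937 for Nppc). Both also fell after hCG in bERKO, and Pde5a, which breaks cyclic GMP down, rose by 1.96. Among 7 genes of the PPAR family and partners, Ppard rose by 2.10 and Rxrb fell by 2.01 in bERKO, and 0 passed in WT (1, Ppara, at 1.96 without WT hCG replicate 1). Of 4 genes of the CITED family and partners, Cited1 fell by 2.85 in bERKO. Of 12 measured targets that the receptor has in the uterus, 2 rose and 3 fell in bERKO, with Foxo1 at -2.96, Wnt4 at 2.97 and Il13ra2 at -2.89, and Foxo1 and Ihh were lower in bERKO than in WT after hCG (-2.64 and -1.51), also without WT hCG replicate 1 (-2.61 and -1.70).

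Of the 14 measured genes of the LH response, 11 rose in bERKO (median 4.11) and 6 in WT (median 2.86), 0 fell in either, and 0 differed between the genotypes after hCG (limma, median difference 1.72). Without WT hCG replicate 1, 9 rose in WT, Cebpb no longer passed (1.18, adjusted p = 0.0582) and the median genotype difference was 1.02. Ptgs2 measured 14.21, 14.18 and 14.32 in bERKO hCG and 8.18, 12.23 and 13.62 in WT hCG, and Nr4a1 10.81, 10.86 and 11.94 in bERKO hCG and 10.09, 11.51 and 8.87 in WT hCG.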

How the data were processed

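The deposited table held linear intensities, 1 per probe set and array, which the authors had scaled to a 2% trimmed mean of 500.0, as tested on the values; no source used here names the software behind them. Per the labels, RNA from laser-captured cells was isolated with a PicoPure kit, and 25 ng was amplified and biotinylated with NuGEN kits. Of 45101 probe sets, 64 controls were left out, and 34945 of the other 45037 named 1 gene, 932 several and 9160 were not listed. Array medians differed by 0.98 on the log2 scale, so values were quantile normalized and taken as log2(intensity + 16). The probe set with the highest mean stood for each of the 18193 genes. Group means were fitted over all 12 arrays with limma 3.58.1 in R 4.3.3 (lmFit, eBayes), with two-sided tests and Benjamini-Hochberg adjustment over all genes within a comparison, after a test on simulated data. Figures used Python 3.11.15 and matplotlib 3.10.9. The number of arrays limits the precision.

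The 7 genes and the 17 other gene lists were chosen with earlier results of these data known. Named were the 7 genes, Esr2, Ptgs2, Nr4a1, the 5 genes closest to Pgr, and up to 3 genes per list and comparison with the smallest adjusted p; beyond it Zbtb16, Timp1, Cebpb, Tnfaip6, Flt1, and Snap25, Adcyap1, Vcan, Nr3c1 and Ppara in WT were named after their values were seen. Listed genes with no probe set naming them alone, such as Areg, Ednra and Lhcgr, were not analysed here. Upstream sequences are from RefSeq, GRCm38.p6; the array table gives no build. No label pairs the arrays by replicate number, and the main fit used no pairing. Over 18 same-numbered pairs, deviations correlated from -0.082 to 0.119 and 1 exceeded 0.1, which does not settle whether arrays were paired.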

Additional observations from a re-analysis of the deposited data

Results flagged for a closer look

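Pgr had opposite genotype differences by treatment, with no overlap either time: every bERKO array was above every WT array after hCG and below every WT array before it. This held for the brightest of its 3 probe sets; on the other 2 every bERKO array was also above every WT array before hCG. The difference between the hCG responses was 4.47 (SE 2.27, adjusted p = 0.381), so it did not pass, and it was 1.79 (adjusted p = 0.162) without WT hCG replicate 1. Cited2 showed the same arrangement on the brighter of its 2 probe sets, with a difference between responses of 1.47 (SE 0.49, adjusted p = 0.182). On its dimmer probe set the genotypes overlapped before hCG. Pparg had opposite responses by genotype, with every bERKO array higher and every WT array lower after hCG, and the difference between them was 2.69 (adjusted p = 0.181). This difference was 1.90 without WT hCG replicate 1 and 3.61 without WT hCG replicate 3. The bERKO response of Pparg was 0.44 without bERKO PMSG replicate 3.

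The difference between the bERKO and WT responses to hCG passed in limma for 8 of 162 measured listed genes, beside 1.31% of all genes. It was -2.66 for Foxo1 (adjusted p = 0.0135), -2.44 for Inhbb (0.0157), 4.03 for Cdh5 (0.0228) and 3.70 for Emcn (0.00819), and these calls were kept without WT hCG replicate 1. It was -2.55 for Esr1 (0.0236), -1.65 for Ece1 (0.0435), -2.69 for Gucy1a1 (0.0251) and 5.18 for Adamts4 (0.0393), and without that array these were at -2.51 (adjusted p = 0.052), -1.47 (0.0793), -2.62 (0.0614) and 4.35 (0.0617).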

How the results depend on the processing

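Of 728 values of the 7 genes under the alternatives, 684 kept their direction and their side of the threshold, 1 lost its call, 14 gained one and 29 changed sign. The 4 calls in bERKO after hCG were kept with 1 array left out (4 to 4), and only median centring removed one, that of Adamts1. Between the genotypes after hCG the count of 0 became 1 with median centring and 1 with array weights (Prkg2 both times), and 0 to 2 with 1 array left out, the 2 (Pparg 2.86 and Prkg2 4.53) without WT hCG replicate 3. For the WT response it became 1 with median centring (Pparg), 2 with array weights (Pgr 5.79 and Prkg2 3.90), 2 without both WT hCG replicate 1 and bERKO PMSG replicate 3, and 0 to 2 with 1 array left out. For the difference between responses it was 0 to 2 with 1 array left out, the 2 (Pparg 3.61 and Prkg2 4.77) without WT hCG replicate 3, and before hCG 0 to 0. The cause was not tested.

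Values that changed sign had not passed. Before hCG, bERKO minus WT was 0.26 for Pgr with the mean of probe sets, 0.0285 (values as deposited) and 0.28 (median centring) for Adamts1, with -0.148 to 0.0139 when 1 array was left out, and 0.16, 0.41 and 0.17 (values as deposited, median centring, mean of probe sets) for Ctsl. After hCG it was 0.0202 (as deposited) and 0.17 (median centring) for Ctsl. The WT response was -0.15 for Adamts1 and -0.0825 for Ctsl with median centring, and -0.0143 to 0.60 for Adamts1 with 1 array left out. The bERKO response was -0.32 (median centring) and -0.0949 (mean of probe sets) for Ctsl and -0.0647 to 0.49 for Edn2 with 1 array left out. The difference between responses of Ctsl was -0.14, -0.24, -0.52, -0.0105 and -0.0667 (as deposited, median centring, mean of probe sets, array weights, without both arrays) and -0.0462 to 0.12 with 1 array left out, and that of Edn2 was -0.62 to 0.21.

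Counts over all genes moved more. Before hCG the 2 calls became 7 as deposited, 5 with median centring, 0 with offset 1, 1 with the mean of probe sets, 1 with only the groups compared, 7 without both arrays and 0 to 26 with 1 array left out. The 562 genotype calls after hCG became 223 with offset 1, 1239 with array weights, 219 with only the groups compared, 259 without both arrays and 141 to 684 with 1 left out. The 378 WT calls became 236 as deposited, 139 with offset 1, 699 with dim genes left out, 1598 with array weights, 31 with only the groups compared, 835 without both arrays and 49 to 580 with 1 left out. The 239 calls of the difference became 87 with offset 1, 420 with array weights, 120 without both arrays and 81 to 408 with 1 left out, and the 3447 bERKO calls 2302 to 3848. Calls were higher in 50.2%, 35.2% and 37.2% of cases for genotype after hCG, WT response and bERKO response, in 38.9%, 44.1% and 43.0% as deposited, and in 66.2%, 18.4% and 24.3% with median centring, which moved the median of all genes to 0.24 (genotype before hCG), -0.22 (WT) and -0.41 (bERKO), against 0.04, -0.08 and -0.19.

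With the replicate number as a block, the counts for the 7 genes were 0 in each comparison except 4 for the bERKO response, as without it, while the calls over all genes were 148 of the WT response and 129 of the difference between responses. No label says that the numbers pair the arrays. Of 12 arrays 6 correlated best with an array of their own number, a count that cannot settle pairing. The block fit therefore says nothing of the size of an effect.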
